A study of Mus musculus with 11 samples.

Results

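Aquaporins are membrane channels for water and, in some members, glycerol, and the 7 genes described here, Aqp1, Aqp2, Aqp3, Aqp4, Aqp6, Aqp7 and Aqp11, were taken by gene symbol from a table of 13985 genes. The table lists 9 aquaporin genes in all, and Aqp5 and Aqp9 are described separately. RNA was sequenced from mouse kidney preparations labelled primary kidney fibroblasts. All came from adult C57BL/6 kidneys that were digested, and the cells were enriched in DMEM with serum and antibiotics. The groups were kidneys 3 days after unilateral ureteral obstruction (UUO, surgical blockage of the ureter of 1 kidney; n = 4), kidneys 7 days after UUO (n = 4) and control kidneys (n = 3). The labels do not say whether replicates were separate animals, so the spread between them may be partly technical.

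In the kidney, AQP1 lets water leave the proximal tubule and the thin descending limb. AQP2 is the vasopressin-regulated channel of the collecting duct: vasopressin acts on its receptor AVPR2 in principal cells, cAMP and protein kinase A follow, and AQP2 moves to the apical membrane. AQP3 and AQP4 let the water out at the basolateral side of the same cells. AQP6 lies in vesicles of intercalated cells, AQP7 carries water and glycerol in the straight proximal tubule and in adipocytes, and AQP11 lies in intracellular membranes of the proximal tubule.

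The promoters of Aqp1, Aqp2 and Aqp3 are shown because these were the most abundant members and all fell after obstruction. Each window runs from 250 bases before to 50 bases after the RefSeq start on the gene's own strand (GRCm38.p6), 5′ to 3′. The windows are chr15:99578806-99579105 on the plus strand for Aqp2, chr4:41098134-41098433 on the minus strand for Aqp3 and chr6:55336049-55336348 on the plus strand for Aqp1. The RefSeq start of Aqp1 lies upstream of the gene start in the deposited table. Capitals mark the motif matches.
Aqp2: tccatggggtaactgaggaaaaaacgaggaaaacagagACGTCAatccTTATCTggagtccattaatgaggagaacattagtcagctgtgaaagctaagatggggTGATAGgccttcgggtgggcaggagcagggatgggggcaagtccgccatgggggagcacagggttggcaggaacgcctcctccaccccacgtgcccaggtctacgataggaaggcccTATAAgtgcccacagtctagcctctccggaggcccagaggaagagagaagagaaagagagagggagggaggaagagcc
Aqp3: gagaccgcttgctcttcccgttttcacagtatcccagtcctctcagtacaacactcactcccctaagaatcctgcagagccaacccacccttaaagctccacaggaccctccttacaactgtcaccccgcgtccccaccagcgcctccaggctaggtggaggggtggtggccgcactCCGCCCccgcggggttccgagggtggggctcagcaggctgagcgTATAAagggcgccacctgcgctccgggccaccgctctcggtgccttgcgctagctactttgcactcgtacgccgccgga
Aqp1: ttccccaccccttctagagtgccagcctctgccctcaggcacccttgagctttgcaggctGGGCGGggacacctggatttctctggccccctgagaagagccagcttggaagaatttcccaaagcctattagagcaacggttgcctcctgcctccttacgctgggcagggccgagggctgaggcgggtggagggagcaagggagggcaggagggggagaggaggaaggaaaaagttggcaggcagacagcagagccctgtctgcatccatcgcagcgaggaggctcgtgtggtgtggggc
Matches are given by their base nearest the window's 5′ end, counted from the RefSeq start. The Aqp2 window held ACGTCA, the core of the cAMP response element, at -212. It held elements that factors of the GATA family can read at -202 (TTATCT, on the other strand) and at -145 (TGATAG, on the same strand). The sequence TATAA began at -28. The Aqp3 window held CCGCCC, the GC box on the other strand, at -73 and TATAA at -29, and the Aqp1 window held GGGCGG at -190. Over 32841 mouse promoter windows of this length, searched on both strands, 7.52% held ACGTCA. One of the elements for the GATA family was held by 29.8%. It was searched as AGATA followed by an A or a G, and with TGATA in place of the first 5 of those letters. TATAA was held by 24.9%, GGGCGG by 35.7% and an AP-1 site (TGACTCA or TGAGTCA) by 5.2%. Of the 7 windows found for 6 of the aquaporins, 1 held ACGTCA, 3 an element of the GATA family, 2 TATAA, 2 the GC box and 0 the AP-1 site. A match describes these letters and shows no binding, and any share of so few windows is imprecise.

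Markers of several kidney cell types were present in the preparations. Expression is given as FPKM, a fragment number corrected for the length of the transcript and for how many fragments of the sample mapped. The summed FPKM of 12 fibroblast and pericyte markers was 570 to 1126 at day 3, 1592 to 4110 at day 7 and 98.3 to 113 in control. The 18 proximal tubule markers summed to 1069 to 1980 at day 3, 587 to 738 at day 7 and 13081 to 15891 in control, far above the fibroblast markers in the control libraries. The 10 principal cell markers summed to 122 to 248, 153 to 209 and 343 to 710 FPKM, and the 10 intercalated cell markers to 101 to 206, 118 to 184 and 433 to 702 FPKM, at day 3, at day 7 and in control. The 14 macrophage markers summed to 4808 to 7900 at day 3, 5811 to 6635 at day 7 and 766 to 1169 in control. Mitochondrially encoded genes held 6.81% ± 0.568 of the summed FPKM at day 3, 5.94% ± 1.65 at day 7 and 31.5% ± 5.47 in control (SD, n = 4, 4 and 3). Depth per sample is unknown because no counts are given.

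Some libraries stood apart from others of their group in the members and in the segment markers alike. Control replicate 2 had the highest Aqp2, Aqp3 and Aqp6 of the controls, and its principal cell marker sum was 710 FPKM against 343 and 347 FPKM in the other controls. It had the lowest Aqp4. Day 3 replicate 3 had the lowest Aqp1, Aqp2, Aqp3, Aqp6 and Aqp11 of its group. Its principal cell marker sum was 122 FPKM, against 188 to 248 FPKM in the rest of the group, and its macrophage marker sum was 7900 FPKM, against 4808 to 5857 FPKM. The part of these shifts in the aquaporin differences was not tested, beyond the values without each library given here.

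Every aquaporin of the 7 was lower after obstruction, at both times and without overlap between the libraries of either time and control. All 7 passed the limma test across genes at a Benjamini-Hochberg adjusted p under 0.05, at day 3 and at day 7. Of all 13428 genes tested, 21.0% were called lower at day 3 and 23.5% at day 7, and 20.6% and 23.8% were lower without overlap. Between the times, 5 of 7 were called lower at day 7 than at day 3, against 8.37% of all genes, and the same 5 did not overlap between the times, against 12.5% of all genes. The summed FPKM of the 7 was 255 ± 96.9 at day 3, 108 ± 17.8 at day 7 and 867 ± 241 in control. In bulk RNA, fewer cells of a type and less RNA per cell cannot be told apart. Nor can either be told from a different share of a cell type carried through digestion and enrichment. Log2 fold changes below are of FPKM + 1, which understates the change of low genes, and their adjusted p-values are from limma over all genes tested.

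**Figure D1:**
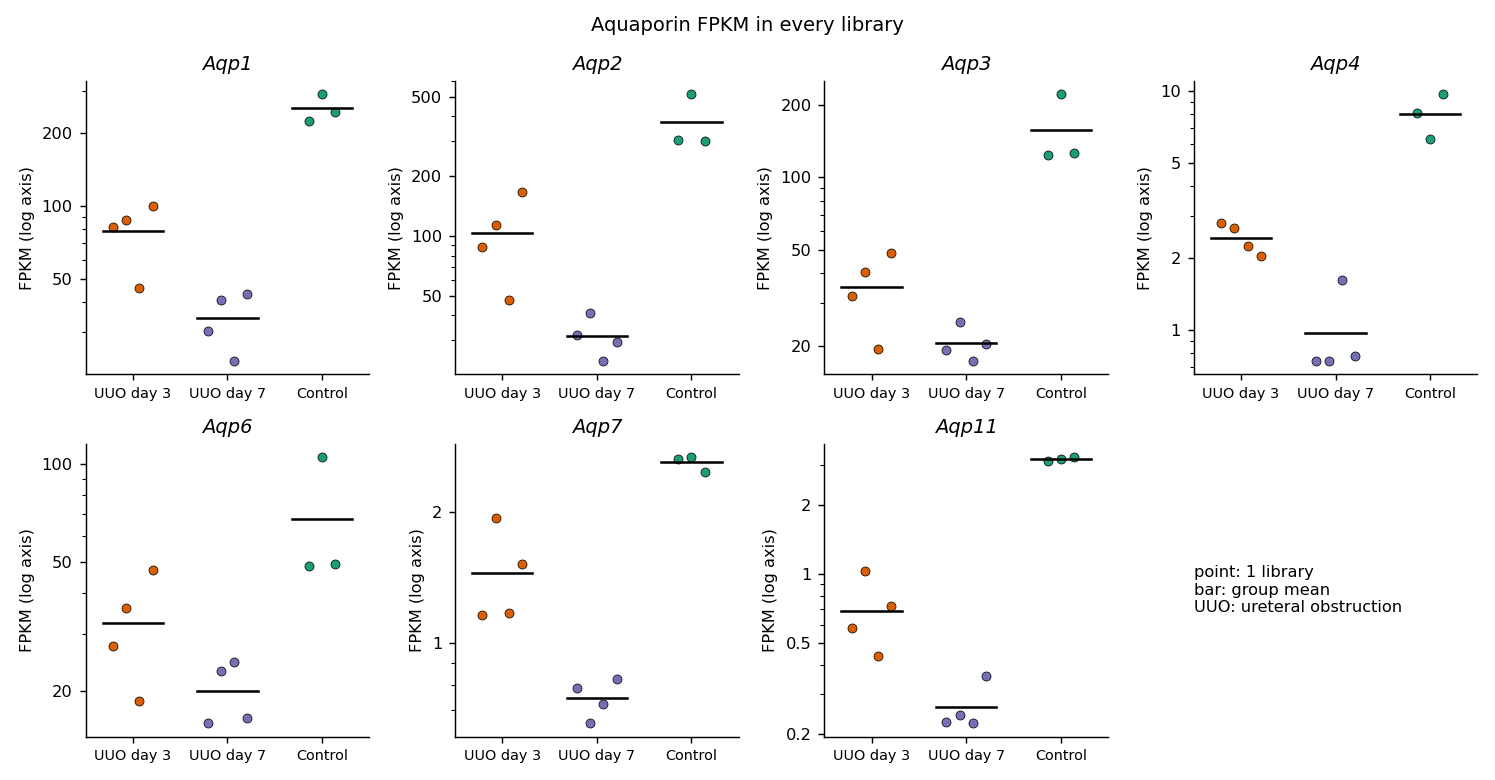
FPKM on log axes (y) of the 7 aquaporins in each library (points), by group (x), with group means as bars. Every point of both obstruction groups lies below every control point, and for Aqp3 and Aqp6 the day 3 and day 7 points overlap.

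Aqp1, the water channel of the proximal tubule and thin limb (chr6:55336432-55348555, plus strand, GRCm38, 4 exons), stood at 82.2, 87.8, 45.5 and 99.6 FPKM at day 3, at 30.4, 40.8, 22.8 and 43.3 FPKM at day 7 and at 225, 291 and 246 FPKM in control. The 3 groups did not overlap, and replicate 3 was lowest at both times. The mean was 3.22 times lower at day 3 than in control (log2 fold change -1.73, SE 0.26, adjusted p = 0.000103) and 7.40 times lower at day 7 (-2.89, SE 0.26, adjusted p = 1.12e-06). It was 2.30 times lower at day 7 than at day 3 (-1.16, SE 0.25, adjusted p = 0.0074). AQP1 is also abundant in red blood cells, and 5 of 5 red blood cell markers tested were lower at both times. Their summed FPKM was 53.2 to 375 at day 3, 61.8 to 174 at day 7 and 2356 to 6373 in control. The red cell part in the fall of Aqp1 was not tested. AQP1 is further found in some endothelium. Of 11 endothelial markers, 5 rose and 2 fell at day 3, where 44.4% of all genes rose and 21.0% fell. At day 7, 3 rose and 1 fell, against 46.3% and 23.5% of all genes.

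Aqp7 and Aqp11, the other members of the proximal tubule, were the least abundant by their gene values. Aqp7 (chr4:41033074-41048139, minus strand) stood at 1.16, 1.94, 1.17 and 1.52 FPKM at day 3, at 0.786, 0.652, 0.724 and 0.827 FPKM at day 7 and at 2.65, 2.68 and 2.48 FPKM in control. The day 3 libraries varied most (SD 0.367 FPKM), and the 3 groups did not overlap. Its mean was 1.80 times lower at day 3 (log2 fold change -0.57, adjusted p = 0.000875), 3.48 times lower at day 7 (-1.04, adjusted p = 5.48e-06) and 1.94 times lower at day 7 than at day 3 (-0.47, adjusted p = 0.0107). With the values rescaled to TPM, which makes every library sum to the same total, the day 3 difference was not called (-0.38, adjusted p = 0.0535). Of 4 adipocyte markers tested, Aqp7's other known site of expression, 1 rose and 1 fell at day 3 and 3 rose at day 7. The 5 adipocyte markers with values, tested or not, summed to 15.7 to 28.1 FPKM at day 3, 16.8 to 79.0 FPKM at day 7 and 16.7 to 30.9 FPKM in control. At day 3, 44.4% of all genes rose and 21.0% fell, and at day 7, 46.3% rose and 23.5% fell.

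Aqp11 (chr7:97724006-97738289, minus strand), whose loss leads to polycystic kidneys in mice, stood at 0.578, 1.03, 0.436 and 0.725 FPKM at day 3, at 0.224, 0.242, 0.222 and 0.356 FPKM at day 7 and at 3.11, 3.19 and 3.24 FPKM in control. The control libraries were closely alike, and every obstruction library lay far below them. Its mean was 4.60 times lower at day 3 (log2 fold change -1.32, SE 0.11, adjusted p = 1.06e-06) and 12.2 times lower at day 7 (-1.73, SE 0.11, adjusted p = 8.88e-08). In fold of the mean these falls were close to that of Aqp3 at day 3 (4.47 times) and that of Aqp2 at day 7 (11.9 times), and the added FPKM of 1 makes the log2 values of Aqp11 smaller. The mean was 2.65 times lower at day 7 than at day 3 (-0.41, adjusted p = 0.0201). That call was lost without day 3 replicate 2, day 3 replicate 4 or day 7 replicate 1, with adjusted p between 0.0545 and 0.0581.

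Aqp2, the vasopressin-regulated channel of the principal cell (chr15:99579056-99584545, plus strand, 4 exons), was the most abundant aquaporin in control. It stood at 88.5, 114, 47.6 and 167 FPKM at day 3, at 31.8, 41.1, 23.7 and 29.5 FPKM at day 7 and at 306, 516 and 302 FPKM in control. The groups did not overlap. Day 3 replicate 3 lay nearest to the day 7 libraries, and control replicate 2 stood highest. The mean was 3.59 times lower at day 3 than in control (log2 fold change -1.92, SE 0.35, adjusted p = 0.000384) and 11.9 times lower at day 7 (-3.51, SE 0.35, adjusted p = 2.23e-06). It was 3.31 times lower at day 7 than at day 3 (-1.59, SE 0.32, adjusted p = 0.00612). These were the largest log2 differences among the 7 at day 7, against control and against day 3.

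Aqp3, the basolateral water and glycerol channel of principal cells (chr4:41092722-41098183, minus strand, 6 exons), stood at 32.3, 40.6, 19.4 and 48.4 FPKM at day 3, at 19.3, 25.2, 17.3 and 20.3 FPKM at day 7 and at 124, 221 and 126 FPKM in control. All obstruction libraries lay below all control libraries, while day 3 and day 7 overlapped through day 3 replicate 3. The mean was 4.47 times lower at day 3 (log2 fold change -2.15, SE 0.28, adjusted p = 2.9e-05), the largest log2 fall of the 7 at that time, and 7.66 times lower at day 7 (-2.84, SE 0.28, adjusted p = 2.23e-06). Day 7 was not called against day 3 (-0.69, SE 0.26, adjusted p = 0.0992). Without day 3 replicate 3 that difference was -0.94 and called (adjusted p = 0.0127).

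Aqp4, a basolateral water channel of principal cells that mouse proximal straight tubules also carry (chr18:15389394-15403684, minus strand, 5 exons), was far less abundant. It stood at 2.79, 2.66, 2.25 and 2.03 FPKM at day 3, at 0.741, 0.742, 1.62 and 0.773 FPKM at day 7 and at 8.10, 6.29 and 9.68 FPKM in control. The groups did not overlap, and day 7 replicate 3 stood above the other day 7 libraries. The mean was 3.30 times lower at day 3 (log2 fold change -1.38, adjusted p = 1.86e-05), 8.29 times lower at day 7 (-2.20, adjusted p = 3.09e-07) and 2.51 times lower at day 7 than at day 3 (-0.82, adjusted p = 0.00472). An antisense gene, AC133525.2, overlaps Aqp4 by 598 bp in the GENCODE M21 annotation. The libraries were stranded, but whether the counting used the strand is not given in the sources used here, so reads of the overlap cannot be assigned with certainty.

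Aqp6, the vesicular channel of intercalated cells (chr15:99601400-99605477, plus strand, 5 exons), stood at 27.5, 36.2, 18.7 and 47.1 FPKM at day 3, at 15.9, 23.2, 24.5 and 16.5 FPKM at day 7 and at 48.4, 105 and 49.3 FPKM in control. The highest day 3 library lay just below the lowest control library, and the times overlapped. The mean was 2.09 times lower at day 3 (log2 fold change -1.02, SE 0.32, adjusted p = 0.0139) and 3.38 times lower at day 7 (-1.63, SE 0.32, adjusted p = 0.000605). Day 7 was not called against day 3 (-0.61, adjusted p = 0.189). The day 3 call was lost without control replicate 2 (-0.66, adjusted p = 0.0802) and with rescaling to TPM (-0.61, adjusted p = 0.0997).

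**Figure D2:**
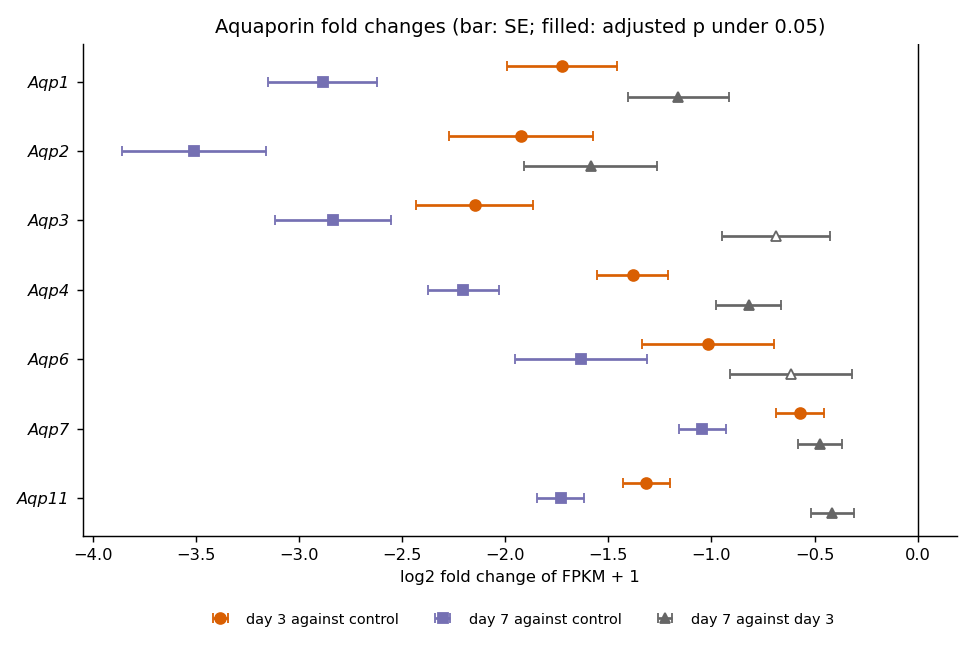
Log2 fold change of FPKM + 1 (x) for each aquaporin (y) in 3 comparisons, with the limma SE as bars and filled symbols where the adjusted p was under 0.05. All values lie left of 0, Aqp2 at day 7 is farthest left (-3.51), and Aqp3 and Aqp6 are open for day 7 against day 3.

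The order of the aquaporin levels differed between the groups. At day 3, Aqp2 (104 ± 50.1 FPKM) and Aqp1 (78.8 ± 23.3) led, followed by Aqp3 (35.2 ± 12.4), Aqp6 (32.4 ± 12.1), Aqp4 (2.43 ± 0.352), Aqp7 (1.45 ± 0.367) and Aqp11 (0.691 ± 0.252; SD, n = 4). The ranges of neighbours from Aqp2 to Aqp6 overlapped at day 3, while Aqp4, Aqp7 and Aqp11 stood apart from one another. Within each day 3 library the order from Aqp2 to Aqp6 held. The lowest ratios were 1.05 for Aqp2 to Aqp1, 2.06 for Aqp1 to Aqp3 and 1.03 for Aqp3 to Aqp6. At day 7, Aqp1 (34.3 ± 9.48 FPKM) and Aqp2 (31.5 ± 7.23) were close, then Aqp3 (20.5 ± 3.34), Aqp6 (20.0 ± 4.45), Aqp4 (0.968 ± 0.433), Aqp7 (0.747 ± 0.0762) and Aqp11 (0.261 ± 0.0640; SD, n = 4). Neighbours from Aqp1 to Aqp6 overlapped again, as did Aqp4 and Aqp7, and Aqp11 lay below. In control the order was Aqp2 (375 ± 122 FPKM), Aqp1 (254 ± 33.5), Aqp3 (157 ± 55.6), Aqp6 (67.6 ± 32.4), Aqp4 (8.02 ± 1.70), Aqp11 (3.18 ± 0.0617) and Aqp7 (2.60 ± 0.109; SD, n = 3), and no neighbours overlapped. By these gene values Aqp11 thus stood above Aqp7 in control and below it at both times. The longer Aqp11 transcript had higher values than the gene. At 7.57 to 7.99 FPKM in control it lay within the range of Aqp4 there (6.29 to 9.68 FPKM). At day 3 its 1.10 to 2.58 FPKM overlapped with Aqp7 (1.16 to 1.94 FPKM). The place of Aqp11 in the order therefore rests on the gene values.

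Ratios of 2 aquaporins within a library do not depend on that library's scaling. Ratios were formed for all 6 pairs of the 4 abundant members, Aqp1, Aqp2, Aqp3 and Aqp6, and compared in 18 exact two-sided permutation tests, a comparison chosen after the levels had been seen. With 4 libraries against 3 the smallest possible p is 0.0571, and with 4 against 4 it is 0.0286, so none could pass after adjustment over the 18. The ratio of Aqp2 to Aqp3 was 2.74, 2.81, 2.46 and 3.46 at day 3, 1.65, 1.63, 1.37 and 1.45 at day 7 and 2.47, 2.33 and 2.38 in control. Day 7 thus lay below both other groups without overlap, while day 3 and control overlapped. Day 7 against day 3 gave the smallest p the test allows (p = 0.0286, exact permutation test), which did not pass after adjustment (adjusted p = 0.0857).

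The ratio of Aqp3 to Aqp6 was 1.17, 1.12, 1.04 and 1.03 at day 3, 1.21, 1.09, 0.707 and 1.23 at day 7 and 2.56, 2.11 and 2.56 in control. Both times lay below control without overlap (p = 0.0571 each, exact permutation test; adjusted p = 0.0857), and the times overlapped. The ratio of Aqp2 to Aqp6 was 2.55 to 3.56 at day 3, 0.966 to 2.00 at day 7 and 4.91 to 6.32 in control, and the 3 groups did not overlap. The ratio of Aqp2 to Aqp1 averaged 1.28 ± 0.292 at day 3, 0.944 ± 0.175 at day 7 and 1.45 ± 0.287 in control, and overlapped between day 3 and control only. The ratio of Aqp1 to Aqp3 went the other way at day 3, at 2.06 to 2.55 against 1.31 to 1.95 in control without overlap (p = 0.0571, exact permutation test; adjusted p = 0.0857). At day 7 it was 1.32 to 2.13, overlapping with both. The ratio of Aqp1 to Aqp6 averaged 2.49 ± 0.363 at day 3, 1.81 ± 0.695 at day 7 and 4.14 ± 1.20 in control, and day 7 and control did not overlap.

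**Figure D3:**
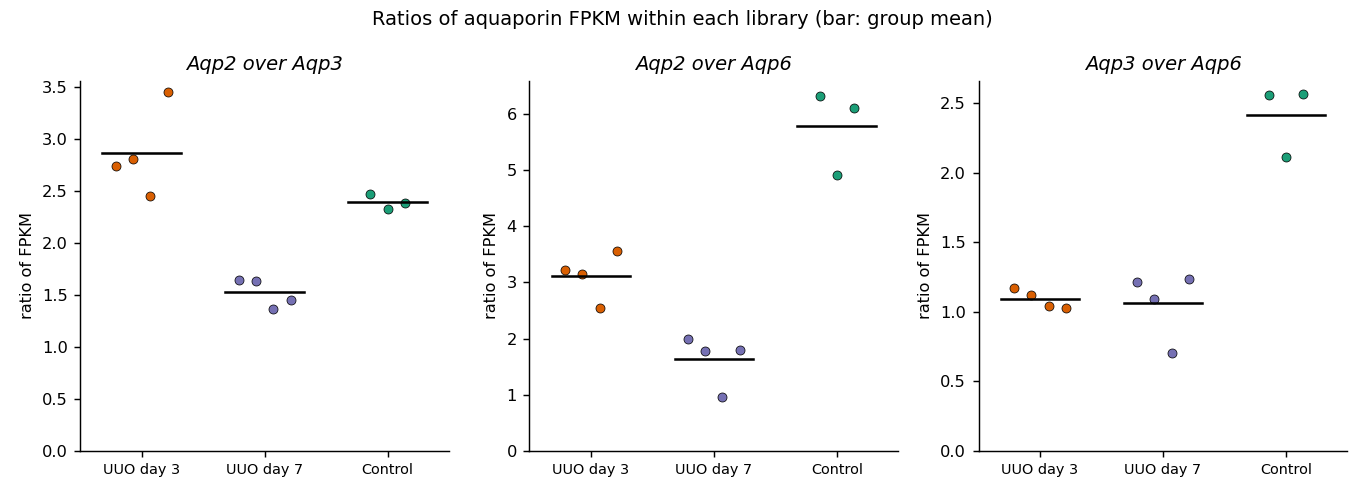
Ratio of FPKM within each library (y) for 3 pairs of aquaporins, by group (x), with group means as bars. Aqp2 over Aqp3 is lowest at day 7 (1.37 to 1.65), and Aqp3 over Aqp6 is near 1.1 at both times (means 1.09 and 1.06) against 2.41 in control.

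Each aquaporin was next set against markers of the cells it is known from. The mean log2 value of the markers was subtracted in each library and the fit across all genes repeated, so that the difference is the member's change minus the mean change of its segment's markers. For the proximal tubule, 18 of 18 markers fell at both times, where 21.0% and 23.5% of all genes fell. Their median log2 fold changes were -2.55 at day 3 and -4.03 at day 7, against 0.26 and 0.28 over all genes. Aqp1 fell less than these markers, by a relative difference of 0.86 at day 3 (adjusted p = 0.00152) and 1.01 at day 7 (adjusted p = 0.000293). Aqp7 (2.02 and 2.85) and Aqp11 (1.27 and 2.17) were also called relatively higher at both times. Such a call is no mark of these members, since 98.5% of all genes at day 3 and 99.2% at day 7 were called higher relative to the proximal tubule markers, and 97.3% at day 7 against day 3. The relative values of the low genes Aqp7 and Aqp11 also depend on the added FPKM: with 0.1 in place of 1, the value of Aqp11 at day 3 was 0.57 and not called (adjusted p = 0.0813), and its value at day 7 against day 3 was 0.35 and not called (adjusted p = 0.241), against 0.89 with 1 FPKM.

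For the principal cell, 8 of 10 markers fell at each time, with median log2 fold changes of -1.06 at day 3 and -1.04 at day 7. Between the times, 0 of 10 were called by limma (median -0.03), with 3 at an unadjusted p under 0.05. Among all genes, 21.0% fell at day 3 and 23.5% at day 7, and 8.37% fell and 7.37% rose between the times. Without control replicate 2, day 3 replicate 3 or day 7 replicate 3, or with only both groups in the fit, 1 of 10 was called lower between the times, and 1 of 10 was called higher without day 3 replicate 1 or after each of 4 rescalings. Aqp2 fell further than these markers at day 3 (relative difference -0.86, SE 0.25, adjusted p = 0.00457) and at day 7 (-2.37, SE 0.25, adjusted p = 4.3e-07). Aqp3 did so as well (-1.08, adjusted p = 0.000119 at day 3, and -1.70, adjusted p = 1.31e-06 at day 7). Aqp4 was called relatively lower at day 7 (-1.06, adjusted p = 0.00325) and not at day 3 (-0.32, adjusted p = 0.323), where it was called without control replicate 2 (-0.71, adjusted p = 0.0119). Mouse proximal straight tubules also carry Aqp4, but it was not set against the proximal tubule markers. Those had larger median falls (-2.55 at day 3 and -4.03 at day 7) than the falls of Aqp4 (-1.38 and -2.20). Of all genes, 3.43% were called lower relative to the principal cell markers at day 3 and 5.33% at day 7. From day 3 to day 7, Aqp2 was called lower still relative to the markers (-1.51, SE 0.23, adjusted p = 0.00117), a call made for 1.96% of all genes, and Aqp3 (-0.62, adjusted p = 0.0700) and Aqp4 (-0.75, adjusted p = 0.170) were not. Aqp3 was called there without control replicate 2 (adjusted p = 0.0469) or day 3 replicate 3 (adjusted p = 0.0219), and Aqp4 without control replicate 2 (adjusted p = 0.0266), with only both groups in the fit (adjusted p = 0.0446) or with 0.1 FPKM added in place of 1 (-1.20, adjusted p = 0.0418).

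Intercalated cell markers fell in 9 of 10 cases at day 3 and 10 of 10 at day 7, where 21.0% and 23.5% of all genes fell. Relative to them Aqp6 stood 0.57 higher at day 3 (adjusted p = 0.0477) and 0.11 at day 7 (adjusted p = 0.704), and of all genes 91.1% and 90.3% were called relatively higher. The day 3 call was lost when only the libraries of both groups were fitted (adjusted p = 0.0603). It was also lost without control replicate 1 or 3, day 3 replicate 2 or 4, or day 7 replicate 2 or 4, with adjusted p between 0.0665 and 0.196.

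**Figure D4:**
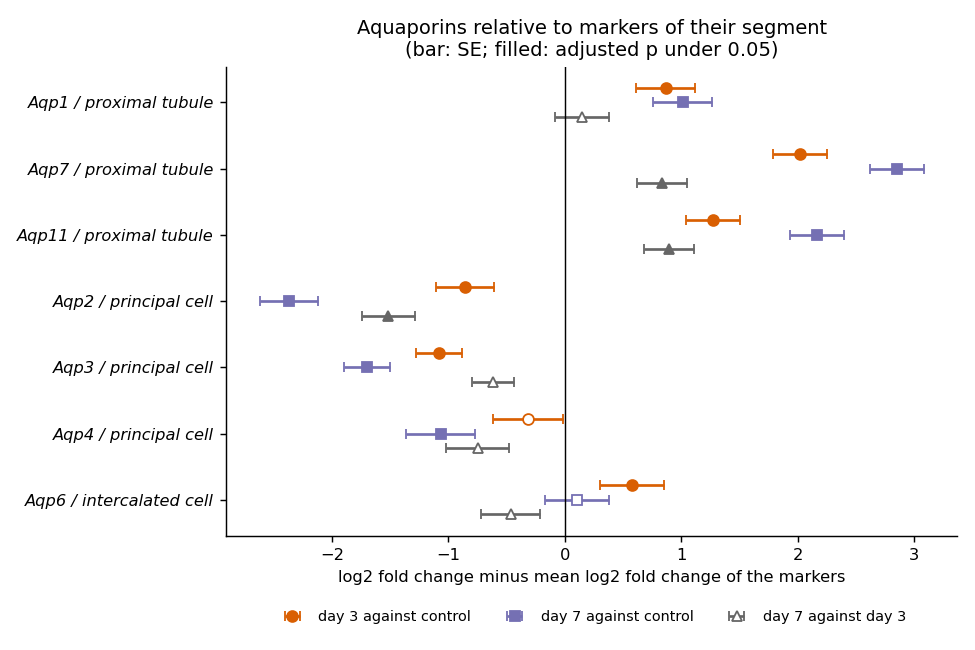
Log2 fold change of each aquaporin minus the mean log2 fold change of its segment's markers (x), by aquaporin and segment (y), with SE as bars and filled symbols where the adjusted p was under 0.05. Aqp2, Aqp3 and Aqp4, set against principal cell markers only, lie left of 0. Aqp1, Aqp7 and Aqp11 lie right of it, and Aqp2 at day 7 against control is at -2.37.

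Of 32 genes of vasopressin signalling and AQP2 trafficking, 11 rose and 8 fell at day 3, 10 rose and 8 fell at day 7, and 1 rose and 3 fell at day 7 against day 3. Over all genes, 44.4% rose and 21.0% fell at day 3, 46.3% rose and 23.5% fell at day 7, and 7.37% rose and 8.37% fell at day 7 against day 3. Their median log2 fold change was -0.08 at day 3 and 0.07 at day 7, against 0.26 and 0.28 over all genes. The largest falls were those of Avpr2, the vasopressin receptor of the collecting duct (-1.43 at day 3 and -1.88 at day 7), and Ptger3, a prostaglandin E2 receptor that lowers cAMP (-1.54 and -1.69). The largest rises were those of Adcy3, an adenylyl cyclase (1.25 and 1.90), and Nedd4, a ubiquitin ligase (1.01 and 1.51). The Nedd4 call at day 3 was lost without control replicate 1 or 2 or day 3 replicate 1 or 3, with adjusted p between 0.0530 and 0.130, with same-numbered libraries as a block (0.96, adjusted p = 0.0735), after median centring (0.68, adjusted p = 0.140) and after quantile normalization (0.72, adjusted p = 0.125). The split of the list depends on scaling: at day 3, 16 rose and 2 fell after rescaling to TPM and 4 rose and 18 fell after median centring, and at day 7, 17 rose and 3 fell and 7 rose and 14 fell.

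Avpr2 stood at 3.43, 3.31, 2.56 and 3.86 FPKM at day 3, at 2.41, 1.97, 2.15 and 1.96 FPKM at day 7 and at 7.87, 17.1 and 8.49 FPKM in control. The groups did not overlap, but day 7 was not called against day 3 (log2 fold change -0.45, adjusted p = 0.143). It was called when control replicate 2 was left out of the shared fit (adjusted p = 0.0184).

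Of 13 genes of sodium and urea transport in the collecting duct, 9 fell and 2 rose at day 3, and 11 fell and 2 rose at day 7. At day 7 against day 3, 3 fell, and 5 were called there without day 3 replicate 3. Among all genes, 21.0% fell and 44.4% rose at day 3, 23.5% fell and 46.3% rose at day 7, and 8.37% fell between the times. The median log2 fold change of the 13 was -0.94 at day 3 and -1.18 at day 7. The falls were led at day 3 by Kcnj1, the potassium channel ROMK (-2.19), and Fxyd4, a sodium pump regulator (-1.96), and at day 7 by Fxyd2, another such regulator (-2.46), and Slc14a2, the UT-A urea transporter (-2.42). The segment that these transcripts came from was not tested. Of 9 thick limb and distal tubule markers, 7 fell at day 3 and 8 at day 7. Their median log2 fold changes were -2.16 and -2.98, against -1.06 and -1.04 for the principal cell markers. Sgk1, a kinase that raises sodium transport, rose at both times (1.79 and 1.80), as did Slc14a1, the UT-B urea transporter of red cells and vasa recta (0.61 and 0.50). The day 7 rise of Slc14a1 was not called after median centring (0.20, adjusted p = 0.113).

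Slc14a2, like Aqp2 a target of vasopressin, stood at 24.2, 26.3, 12.7 and 19.3 FPKM at day 3, at 3.76, 3.08, 9.15 and 6.10 FPKM at day 7 and at 24.1, 48.9 and 26.7 FPKM in control. Day 3 overlapped with control and was not called (log2 fold change -0.64, adjusted p = 0.112), except after median centring (-0.98, adjusted p = 0.0204), whereas all day 7 libraries lay below all others. It was lower at day 7 than at day 3 (-1.77, SE 0.31, adjusted p = 0.00276). Aqp2 and Slc14a2 were thus called lower between the times. Of the 10 principal cell markers 0 were, with 3 at an unadjusted p under 0.05 by limma. So small a number is near the share over all genes and marks no contrast with Aqp2 and Slc14a2. Avpr2, a marker among the 10, did not overlap between the times and was called in some alternative fits. The 13 transport genes held 3 such calls, those of Slc14a2 and Fxyd2 (-0.81, adjusted p = 0.00896) among them. Of all genes tested, 8.37% were called lower between the times.

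**Figure D5:**
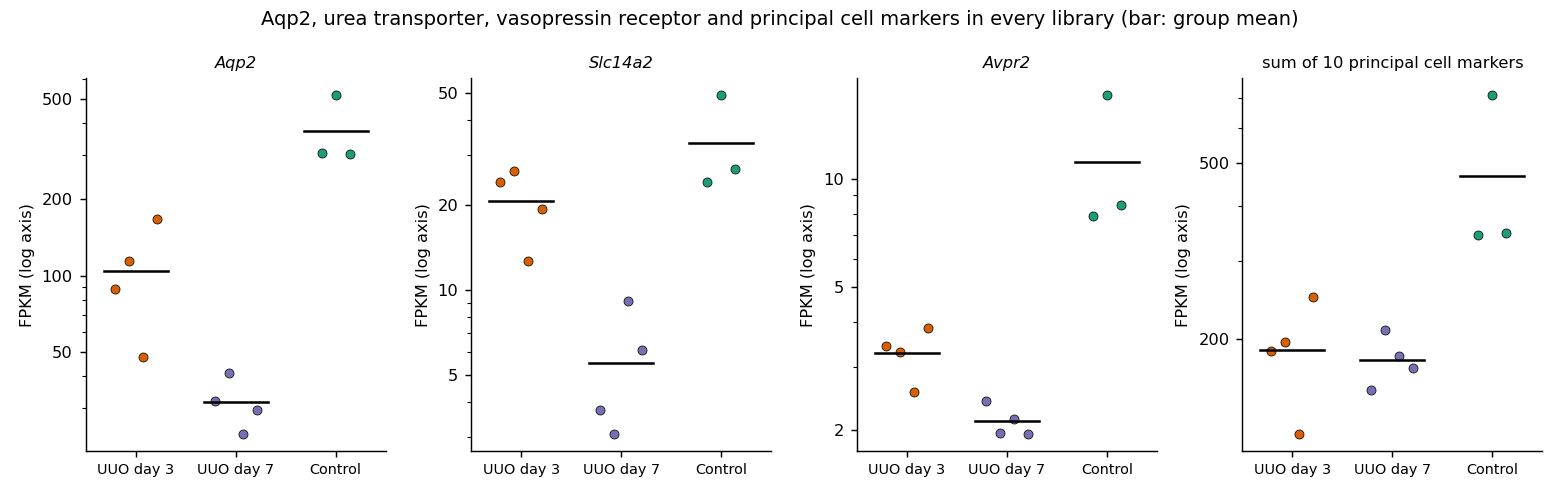
FPKM on log axes (y) of Aqp2, Slc14a2, Avpr2 and the sum of 10 principal cell markers in each library (points), by group (x), with group means as bars. Day 7 lies below day 3 for the 3 genes, and the marker sums overlap between the times (153 to 209 at day 7 and 122 to 248 at day 3).

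Collecting duct transcription factors fell in 5 of 10 cases at day 3 and 6 of 10 at day 7, where 21.0% and 23.5% of all genes fell. By limma, 0 of 10 were called between the times, with 2 at an unadjusted p under 0.05, where 7.37% of all genes rose and 8.37% fell. Between the times, 1 was called higher after rescaling to TPM, after median centring, with only both groups in the fit, with same-numbered libraries as a block, or without control replicate 2 or day 3 replicate 1, and 2 were called higher after rescaling without mitochondrial genes or quantile normalization. Hoxb7 of the ureteric bud lineage (-0.75 at day 3 and -0.75 at day 7) and Pax2, an early kidney factor (-0.70 and -0.85), fell at both times. Gata3, a principal cell factor, was not called (-0.46, adjusted p = 0.0553 at day 3, and 0.08, adjusted p = 0.732 at day 7). After rescaling to TPM, 1 rose and 1 fell at day 3 and 3 rose and 3 fell at day 7, and the Hoxb7 fall was not called at day 3 (-0.39, adjusted p = 0.0522) or day 7 (-0.33, adjusted p = 0.0847), nor that of Pax2 at day 3 (-0.38, adjusted p = 0.0865). After median centring 9 fell at day 3 and 7 at day 7.

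Of 7 genes of the osmolyte and tonicity response, 1 rose and 1 fell at day 3, and 1 rose and 2 fell at day 7. The shares over all genes were 44.4% higher and 21.0% lower at day 3, and 46.3% higher and 23.5% lower at day 7. The median log2 fold change of the 7 was 0.13 and 0.34, against 0.26 and 0.28 over all genes. Slc6a6, the taurine transporter, rose (0.73 and 0.66), and Slc6a12, the betaine transporter, fell (-0.82 and -0.99). Pnpla6, a phospholipase, fell at day 7 (-0.40). With same-numbered libraries as a block, 3 rose and 2 fell at day 7. After rescaling to TPM 5 members rose and 1 fell at day 7, and Pnpla6 was not called (adjusted p = 0.813), while the day 7 rise of Slc6a6 was not called after median centring (0.36, adjusted p = 0.0537).

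Glycerol and lipid droplet genes were counted because AQP3 and AQP7 carry glycerol. Of 12, 7 fell and 2 rose at day 3, 9 fell and 2 rose at day 7, and 4 fell at day 7 against day 3. The last number was 2 without day 3 replicate 2, without day 3 replicate 4 or with only both groups in the fit. Among all genes tested, 21.0% fell and 44.4% rose at day 3, 23.5% fell and 46.3% rose at day 7, and 8.37% fell between the times. Gpd1, the cytosolic glycerol-3-phosphate dehydrogenase (-2.04 and -3.12), and Glyctk, the glycerate kinase (-2.04 and -3.02), fell at both times. Mgll, the monoacylglycerol lipase, fell too (-2.07 and -1.60, adjusted p = 0.0131 at day 7), and its day 7 call was lost after rescaling to TPM (adjusted p = 0.0697) or without control replicate 2 (adjusted p = 0.0503). Plin2, the lipid droplet coat protein, rose (1.65 and 1.74), and so did Lipe, the hormone-sensitive lipase (0.42 and 0.34), whose calls were lost after median centring (0.08 and 0.04). The day 7 call of Lipe was also lost without control replicate 1 or 3 or day 7 replicate 2 or 4, with adjusted p between 0.0528 and 0.103.

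Transcript values were available for each member. Aqp1, Aqp2, Aqp3, Aqp4 and Aqp6 are listed with 1 transcript each, and all 5 were called lower at day 3 and at day 7, where 13.7% and 16.5% of the 23910 transcripts tested were. The day 3 call of the Aqp6 transcript was lost without control replicate 2, day 3 replicate 1 or day 3 replicate 3, with adjusted p of 0.140, 0.0742 and 0.0819. It was also lost after rescaling to TPM (-0.70, adjusted p = 0.111) and with only both groups in the fit (-1.02, adjusted p = 0.0675). The longer Aqp11 transcript (3 exons) stood at 1.41, 2.58, 1.10 and 1.81 FPKM at day 3, at 0.526, 0.607, 0.504 and 0.894 FPKM at day 7 and at 7.57, 7.84 and 7.99 FPKM in control. The groups did not overlap (log2 fold change -1.72, adjusted p = 4.57e-05 at day 3, and -2.44, adjusted p = 3.26e-06 at day 7). These transcript values exceeded the gene values of Aqp11 in every library, and the reason was not tested. The shorter one (2 exons) is listed at 0 in all day 3 libraries and at 0.534 to 0.880 FPKM in control, and lay under the minimum for testing. The shorter Aqp7 transcript (6 exons) stood at 0.630 to 2.00 FPKM at day 3, 0.304 to 0.950 FPKM at day 7 and 1.74 to 3.44 FPKM in control. It was called lower at day 7 (-1.14, adjusted p = 0.00400) and not at day 3 (-0.62, adjusted p = 0.0768). At day 3 it was called without control replicate 3 (adjusted p = 0.0470) or day 3 replicate 4 (adjusted p = 0.0474). The same held after median centring (-0.89, adjusted p = 0.0190) and quantile normalization (-0.88, adjusted p = 0.0233). The longer one (8 exons) is listed at 0 in some libraries of every group, so the division of Aqp7 reads between the pair is uncertain.

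Aqp9 at both times and Aqp5 at day 7 rose, and these aquaporins outside the list of 7 are described here because their values were seen. Aqp5, a channel of salivary and lung epithelium, lies between Aqp2 and Aqp6 on chromosome 15, 6303 bp from Aqp2 and 6570 bp from Aqp6. It stood at 0.0958, 0.215, 0 and 0.233 FPKM at day 3, at 2.39, 1.32, 0.784 and 0.395 FPKM at day 7 and at 0.0406, 0.0408 and 0 FPKM in control. At day 3 it overlapped with control and was not called (log2 fold change 0.14, adjusted p = 0.604), and the sign turned after median centring (-0.19) and quantile normalization (-0.07). Every day 7 library lay above all others (log2 fold change 1.04, adjusted p = 0.00137 against control, and 0.89, adjusted p = 0.0134 against day 3), whereas both of its neighbours fell at day 7 relative to control. Aqp9, a glycerol channel of liver and white blood cells, stood at 1.85, 1.30, 1.64 and 1.42 FPKM at day 3, at 0.945, 1.42, 1.08 and 0.896 FPKM at day 7 and at 0.0874, 0.10 and 0.0982 FPKM in control. It rose at both times (1.22, adjusted p = 1.45e-06, and 0.92, adjusted p = 1.03e-05), as did 14 of 14 macrophage markers, and the part of those cells was not tested. Of all genes, 44.4% rose at day 3 and 46.3% at day 7. 

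The genes with profiles most like each aquaporin over the 11 libraries were found by the smallest root mean square difference of centred log2 values. For Aqp1 these were Hnf4a, a transcription factor of the proximal tubule (0.18), Aldh4a1 (0.19) and Car4 (0.20). For Aqp2 they were Pcx, the pyruvate carboxylase (0.25), Treh, the trehalase (0.29), and Car4, a membrane carbonic anhydrase (0.30). Those of Aqp3 were Dcxr (0.17), Chchd10 (0.19) and Pdk2 (0.20), those of Aqp4 Gatm (0.15), Akr1d1 (0.19) and Mettl7a2 (0.20), and those of Aqp6 Cdh16, the kidney-specific cadherin (0.18), Aif1l (0.19) and Car15 (0.20). Aqp7 was nearest to Nmnat1 (0.096), Arl6ip1 (0.10) and Neu1 (0.10), and genes close to Aqp11 included Pde9a (0.079) and Pex11a, a peroxisomal membrane protein (0.092). Low members vary little on this scale, so their distances are not comparable with those of abundant ones. Pcx, the nearest to Aqp2, averaged 17.9 ± 6.50 FPKM at day 3, 5.31 ± 1.30 FPKM at day 7 and 76.3 ± 13.8 FPKM in control.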

How the data were processed

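RNA of 11 samples was sequenced from stranded libraries, per the labels' protocols. The authors deposited FPKM values per gene (13985) and per transcript (26807), per the file headers; cutadapt, HISAT2, StringTie and GRCm38 are named without versions in the submitters' processing notes, and the annotation release is not given in the sources used here. Low FPKM values showed no single-read steps, so the depth could not be recovered and counting error is not covered.

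Groups and replicate numbers came from the sample titles. The log2(FPKM + 1) values of 13428 genes and 23910 transcripts with a mean of at least 0.5 FPKM were fitted with limma 3.58.1 (R 4.3.3; empirical Bayes, trend, 3 groups in one fit), tested on simulated data, and adjusted by Benjamini-Hochberg over all features. Ratios, motifs and figures used Python 3.11.15 with scipy 1.17.1 and matplotlib 3.10.9. Promoters are RefSeq windows. Of the gene identifiers, 12271 occur in GENCODE M21, used for exon numbers and overlaps; versions differ for some. Members and gene lists were chosen with earlier results of these data known. Named genes are the 7 members, 3 nearest profiles each, and per pathway list the 2 largest called rises and falls against control, of which 2 genes are not reported here; Avpr2, Gata3, Aqp5 and Aqp9 were otherwise described after their values were seen. The lists share some genes, such as Avpr2, Gata3 and Fxyd4.

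Same-numbered day 7 and control samples deviated together across genes (correlations 0.168, 0.428 and 0.166). Samples of different numbers were not compared, so these values cannot show whether the samples were paired. A replicate block changed no aquaporin call at day 7 against control. Alternatives covered the pseudocount, the filter, scaling, the groups fitted, the block and each replicate left out; the relative differences were also tested with each gene's own spread, an alternative added after the data were seen.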

Additional observations from a re-analysis of the deposited data

Results flagged for a closer look

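In groups of 4, a single library can lie far from the rest, and Dixon's 95% criterion used here sets apart about 1 in 20 groups by its construction. Among the day 7 libraries, Aqp4 in replicate 3 (1.62 FPKM) stood apart from 0.741, 0.742 and 0.773 FPKM. That library also had the lowest fibroblast and pericyte marker sum of its group, 1592 FPKM against 3692 to 4110 FPKM. Aqp11 in day 7 replicate 4 (0.356 FPKM) stood apart from 0.224, 0.242 and 0.222 FPKM.

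The level differed between the times for 5 aquaporins in the limma comparison of day 7 with day 3. The control libraries carry no day, so a change with time apart from obstruction was not tested. The log2 differences were -1.16 for Aqp1, -1.59 for Aqp2, -0.82 for Aqp4, -0.47 for Aqp7 and -0.41 for Aqp11. Relative to their segment's markers, the level differed for Aqp2 (-1.51), Aqp7 (0.83) and Aqp11 (0.89). The Aqp11 value was not called with 0.1 FPKM added in place of 1 (0.35, adjusted p = 0.241). Of all genes tested, 97.3% were called higher at day 7 than at day 3 relative to the proximal tubule markers, so the relative values of Aqp7 and Aqp11 share their direction with nearly all genes.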

How the results depend on the processing

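All 7 aquaporins kept a lower level than control at both times under every alternative run. These were 20 for Aqp1, Aqp2, Aqp3, Aqp4 and Aqp6 and 19 for Aqp7 and Aqp11. Every call at day 7 against control held. At day 3, calls were lost for Aqp6 and Aqp7 with rescaling to TPM and for Aqp6 without control replicate 2. The median log2 fold change of all genes, 0.26 at day 3 and 0.28 at day 7, was 0.70 and 0.77 after rescaling to TPM and -0.07 and -0.03 after median centring. Rescaling to TPM makes equal the summed FPKM, which averaged 275068 at day 3, 265155 at day 7 and 369813 in control. Median centring sets the median of each library to 0, so values near 0 follow from its construction. Why the summed FPKM differed was not tested. With a minimum mean of 2 FPKM, which drops Aqp7 and Aqp11, 3 aquaporins were called at day 7 against day 3 in place of 5, and 1 relative to segment markers in place of 3. Without single replicates these numbers were 4 to 6 and 3 to 5. In the same comparison, leaving out replicates gave 1366 to 2599 genes (2114 with all), 508 to 1221 transcripts (1019 with all) and 7 to 15 genes of the pathway lists (11 with all), and fitting only both groups gave 536 transcripts.

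With the replicate number as a replicate block, 2336 genes and 6 aquaporins were called at day 7 against day 3, the sixth being Aqp3 (adjusted p = 0.0185), and 8880 genes and 7 aquaporins at day 3. Relative to segment markers under the block, Aqp6 at day 3 was not called (adjusted p = 0.126) and Aqp4 was called at day 7 against day 3 (adjusted p = 0.0496). Same-numbered libraries did not deviate together throughout in these comparisons (correlations 0.0478, -0.138 and 0.231 for day 3 with control, and 0.103, -0.0268, 0.338 and -0.0298 for day 7 with day 3). Whether same-numbered samples share more than a number is not known. Relative calls held when each gene's own spread was used. FPKM without counts leaves the precision of Aqp7 and Aqp11, at gene values under 4 FPKM, unknown.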
